A study of Mus musculus with 8 samples.

Results

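Epithelial adhesion and keratin genes were followed here in cells of day 5 mouse embryoid bodies, as the 10 genes Cdh1, Epcam, Cldn4, Cldn6, Cldn7, Krt8, Krt18, Krt19, Spint2 and Emb. They were taken as a fixed list of gene names, and all 10 were found once, at the same place, among the 27998 gene rows of each count table. The series asks how TET proteins, which oxidise 5-methylcytosine in DNA, act while embryonic stem cells differentiate toward the heart. The Tet triple knockout library (TKO) and the wild-type library (WT) are single-cell RNA libraries of cells collected on day 5, and each genotype had 1 library. Of 8 samples in the series, the other 6 are pull-downs of oxidised cytosine from wild-type cells and were not analysed here. Per the labels, the cells carry an EmGFP reporter at Nkx2-5 in an E14 background, were kept on embryonic fibroblast feeders treated with mitomycin C, received no treatment, and were differentiated in hanging drops without leukemia inhibitory factor. The labels do not say how many knockout clones were used or which part of each Tet gene was deleted.

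Epithelial cells are joined by adherens junctions, which E-cadherin holds together, and by tight junctions, which claudins seal, and they carry a cytoskeleton of paired keratins. Embryonic stem cells and the epiblast are epithelial, and cells that leave the epiblast as mesoderm lose E-cadherin while they move, whereas definitive and visceral endoderm form epithelia. Cdh1 encodes E-cadherin, Epcam a cell surface adhesion protein of epithelia, and Cldn4, Cldn6 and Cldn7 claudins. Krt8 encodes a type II keratin, which pairs with the type I keratins of Krt18 and Krt19 in simple epithelia. Spint2 encodes an inhibitor of membrane-bound serine proteases, and Emb encodes embigin, a membrane glycoprotein that escorts monocarboxylate transporters to the cell surface.

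After removal of cells with a high mitochondrial share and of the few called doublets, the TKO library held 3196 cells with a median of 9678 unique molecular identifiers (UMIs, counts of single RNA molecules) per cell, and the WT library held 4389 cells with a median of 7847 UMIs. Tet1, Tet2 and Tet3 RNA was counted at 22.8, 4.60 and 20.3 CPM (a gene's UMI count scaled to the same total in every library or gate) in the TKO library, against 12.3, 6.83 and 29.1 CPM in the WT library, which checks nothing, since the tags may lie outside the deleted parts. Cells were placed in a gate when at least 3 of 12 markers of a lineage were detected, and more than of any other lineage, with no member gene among the markers. The pluripotent gate held 297 TKO and 37 WT cells, the endoderm gate 659 TKO and 191 WT cells, and the mesoderm gate 821 TKO and 1618 WT cells. These were 9.29% of TKO and 0.843% of WT cells, 20.6% of TKO and 4.35% of WT cells, and 25.7% of TKO and 36.9% of WT cells. Smaller endothelial gates (54 TKO and 296 WT cells) and blood gates (22 TKO and 495 WT cells) left 1343 TKO and 1752 WT cells ungated. Gates of the same name differed in makeup. The endoderm gate held Trh at 1719 CPM in TKO and 98.0 CPM in WT cells, and Ttr, which encodes transthyretin and marks visceral endoderm, at 165 CPM in TKO and 6088 CPM in WT cells. In the pluripotent gate Pou5f1 stood at 709 CPM in TKO and 691 CPM in WT cells, while the naive marker Zfp42 stood at 44.3 CPM in TKO and 352 CPM in WT cells. The mesoderm gate held Foxc1 at 54.6 CPM in TKO and 0.529 CPM in WT cells, and Hand1 at 143 CPM in TKO and 821 CPM in WT cells. With 1 library per genotype there is no test, a difference between genotypes cannot be told apart from one between cultures or preparations, and every range in brackets is an exact 95% interval that covers counting error only.

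The promoters of the member genes were read first, because the letters CAGGTG are the E-box that the Snail and Zeb repressors of E-cadherin bind. RefSeq windows of build GRCm38.p6, from 250 bases before to 50 after the start, were found for 8 of the 10 members, in 9 windows, with Cldn7 having 2 and Cdh1 and Krt19 none. CAGGTG on either strand lay in 8 of these 9 windows, against 20.2% of 32851 windows of all genes. It lay in at least 1 window of each of the 8 genes, against 22.6% of 27025 genes. Of other listed genes with an entry, it lay in 10 of 17 tight junction, 4 of 6 epithelial regulator and 4 of 6 other keratin genes. It also lay in 2 of 3 desmosome, 2 of 5 epithelial protease and inhibitor and 2 of 5 Epcam partner genes. Adherens junction genes had it in 1 of 5, mesenchymal genes in 1 of 6 and embigin partner genes in 0 of 4. At least 2 matches lay in a window of Epcam, Cldn4, Cldn6, Cldn7, Spint2 and Emb, against 2.88% of all windows, and Krt8 and Krt18 had 1 match each. The grainyhead letters ACCGGTT, searched on both strands, were in 0 of the 9 windows and in 1.02% of all windows. A match of letters is a description and not a bound site. The bases before the start are printed below for Epcam, Spint2 and Emb, which were higher in the TKO library, and for Krt8, which was not. They run 5′ to 3′ on the gene's strand, and capitals mark CAGGTG or its reverse complement.
Epcam, chr17:87635729-87635978, plus strand: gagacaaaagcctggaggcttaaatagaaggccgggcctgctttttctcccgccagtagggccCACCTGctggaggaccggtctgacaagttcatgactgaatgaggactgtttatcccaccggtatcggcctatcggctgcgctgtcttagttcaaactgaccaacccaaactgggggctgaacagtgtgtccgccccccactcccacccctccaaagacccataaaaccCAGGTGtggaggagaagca
Spint2, chr7:29281978-29282227, minus strand: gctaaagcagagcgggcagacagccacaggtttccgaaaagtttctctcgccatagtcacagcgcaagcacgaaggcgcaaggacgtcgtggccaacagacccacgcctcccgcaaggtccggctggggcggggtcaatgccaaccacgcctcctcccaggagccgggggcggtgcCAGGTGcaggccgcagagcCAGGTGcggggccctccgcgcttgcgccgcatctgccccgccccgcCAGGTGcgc
Emb, chr13:117220323-117220572, plus strand: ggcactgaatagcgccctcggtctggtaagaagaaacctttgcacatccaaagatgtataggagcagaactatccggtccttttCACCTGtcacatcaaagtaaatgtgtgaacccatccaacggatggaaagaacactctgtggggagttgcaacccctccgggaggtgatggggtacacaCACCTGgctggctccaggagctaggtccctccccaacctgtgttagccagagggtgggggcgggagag
Krt8, chr15:102004343-102004592, minus strand: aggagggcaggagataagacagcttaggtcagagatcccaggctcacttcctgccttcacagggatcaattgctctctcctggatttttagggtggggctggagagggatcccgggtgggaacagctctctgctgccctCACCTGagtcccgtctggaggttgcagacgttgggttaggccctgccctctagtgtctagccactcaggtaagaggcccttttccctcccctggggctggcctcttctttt
Counted from the start base as 0, the matches began at -187 and -19 in Epcam, at -74, -55 and -9 in Spint2, at -166 and -68 in Emb, and at -111 in Krt8.

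Over whole libraries the members fell into 2 groups. Cdh1, Epcam, the claudins, Spint2 and Emb were 4.88 to 13.8 times as high in the TKO as in the WT library, while Krt8, Krt18 and Krt19 were between 0.62 and 0.91 of the WT level. Thus 7 of 10 members were at least 2-fold higher in the TKO library, where 12.3% of 14230 genes were, and 0 were at least 2-fold lower, where 11.3% of genes were. The median log2 ratio of TKO over WT was 2.93 over the members and 0.14 over all 14230 genes. Scaling by DESeq2 size factors set the median of all genes at -0.02, and all 10 members kept their direction under each of the 7 whole-library alternatives.

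**Figure D1:**
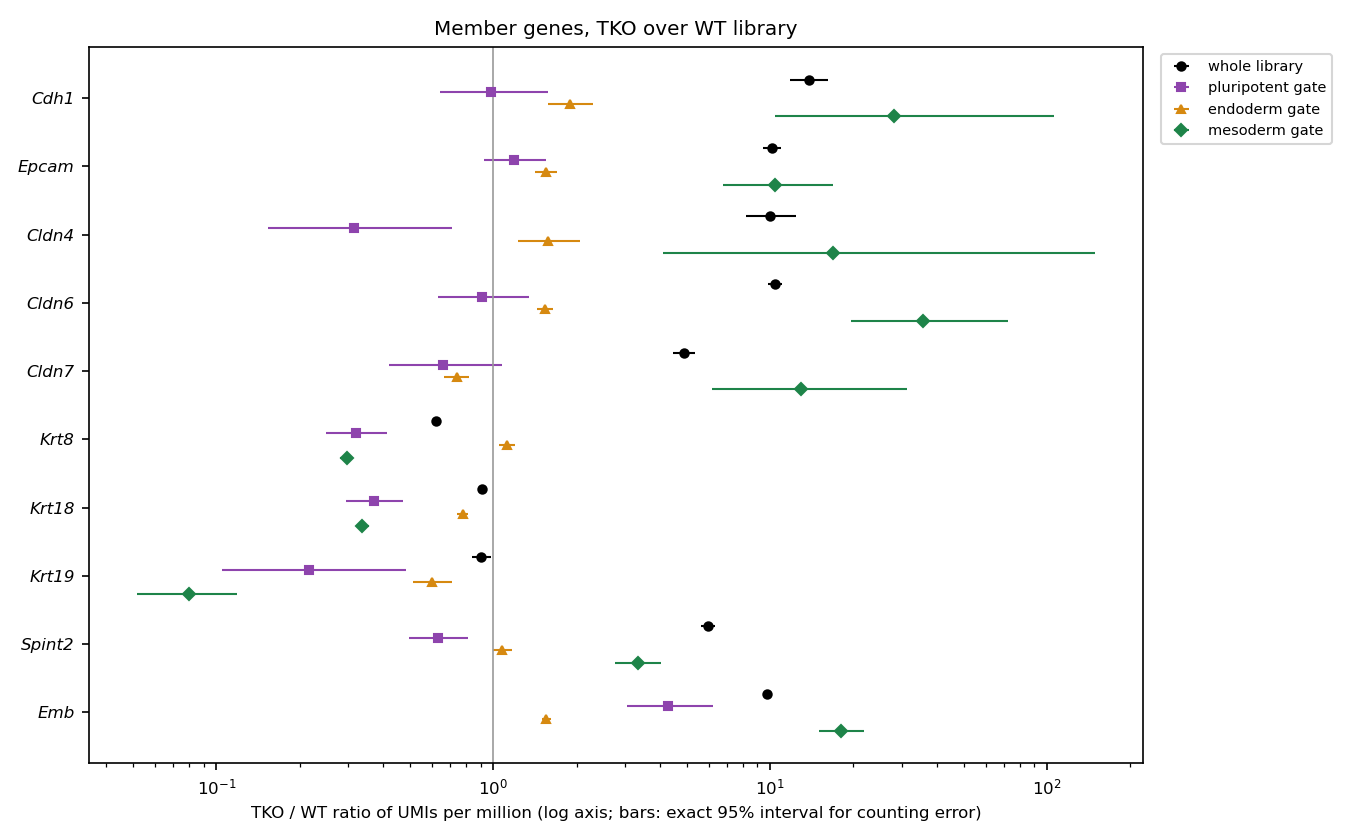
Ratio of the TKO over the WT library for each member gene on a log axis, for whole libraries and for 3 gates, with points as ratios of CPM and bars as exact 95% intervals for counting error. In the endoderm gate all points lie between 0.60 and 1.89, while whole-library and mesoderm-gate points of Cdh1, Epcam, the claudins, Spint2 and Emb lie above 3 and those of the keratins lie below 1.

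Cdh1 had 63.2 CPM in the TKO library (60.6 to 66.0) and 4.59 CPM in the WT library (3.93 to 5.32), from 2117 TKO and 172 WT UMIs, a 13.8-fold difference (11.8 to 16.2). That was the highest whole-library ratio among the members. In the pluripotent gate Cdh1 stood at 62.1 CPM in TKO and 63.3 CPM in WT cells, a ratio of 0.98 whose interval (0.64 to 1.58) holds 1, although its log2 ratio of -0.06 came to 1.12 when cells were thinned before gating. The endoderm gate held it at 143 CPM in TKO and 75.4 CPM in WT cells, 1.89-fold higher (1.57 to 2.29). In endoderm-gated cells with more visceral markers it stood at 76.0 CPM in TKO and 76.7 CPM in WT cells, a ratio of 0.99 (0.70 to 1.38). Cells with more of the other endoderm markers, 574 TKO and 13 WT cells, held it at 150 CPM in TKO and 60.1 CPM in WT cells (8 UMIs). In the whole pluripotent and endoderm gates Cdh1 thus differed less between genotypes than over the libraries, under each gate setting tried. Mesoderm-gated cells held it at 7.39 CPM in TKO cells (66 UMIs) and 0.264 CPM in WT cells (4 UMIs). Of the Cdh1 UMIs, the endoderm gate gave 52.1% in the TKO and 73.8% in the WT library, and ungated cells gave 31.8% and 9.88% of the TKO and WT totals.

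Epcam had 216 CPM in the TKO library (211 to 221) and 21.2 CPM in the WT library (19.8 to 22.7), 10.2-fold higher (9.45 to 10.95). Its order of gates was the same in both libraries among the 3 main gates, with endoderm above pluripotent and pluripotent above mesoderm. Endoderm-gated cells held it at 510 CPM in TKO cells, from 3944 UMIs, and 328 CPM in WT cells, from 553 UMIs, a ratio of 1.55 (1.42 to 1.70). The pluripotent gate held it at 215 CPM in TKO and 182 CPM in WT cells, a ratio of 1.19 (0.92 to 1.55). The mesoderm gate held it at 16.6 CPM in TKO and 1.59 CPM in WT cells.

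The claudins did not move as 1 block. Cldn6, the claudin of early embryonic epithelia, had 313 CPM in the TKO library (307 to 319) and 30.1 CPM in the WT library (28.3 to 31.9), 10.4-fold higher (9.79 to 11.1). Cldn4 had 27.2 CPM in the TKO library and 2.72 CPM in the WT library, 10.0-fold higher (8.15 to 12.4). Cldn7 had 77.7 CPM in the TKO library and 15.9 CPM in the WT library, 4.88-fold higher (4.46 to 5.34), the lowest ratio among the 3. Within the endoderm gate Cldn7 was lower in TKO cells, at 208.5 CPM in TKO and 283 CPM in WT cells, a ratio of 0.74 (0.67 to 0.82). Cldn6 in that gate stood at 834 CPM in TKO and 542 CPM in WT cells, a ratio of 1.54 (1.43 to 1.65), so that Cldn6 and Cldn7 stood on opposite sides of 1 in the same cells. Cldn4 in that gate stood at 65.5 CPM in TKO and 41.6 CPM in WT cells, a ratio of 1.58 (1.23 to 2.05), but its log2 ratio was -0.12 when cells were thinned before gating. Cldn4 was the claudin with the lowest ratio of TKO over WT in the pluripotent gate, with 8.67 CPM in TKO cells (37 UMIs) and 27.5 CPM in WT cells (10 UMIs), a ratio of 0.32 (0.15 to 0.71). Among cells with more naive markers, which were 35 of the 37 WT cells and 27 of the 297 TKO cells, it stood at 42.9 CPM in TKO and 29.1 CPM in WT cells, a ratio of 1.47 (0.61 to 3.71).

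Keratin RNA was laid out otherwise, with much of the WT keratin RNA in mesoderm-gated and ungated cells. Krt8 had 359 CPM in the TKO library (352 to 365) and 576 CPM in the WT library (568 to 584), a ratio of 0.62 (0.61 to 0.64). Krt18 had 460.0 CPM in the TKO library and 504 CPM in the WT library, a ratio of 0.91 (0.89 to 0.93), and Krt19 had 31.9 CPM in the TKO library and 35.2 CPM in the WT library, a ratio of 0.91 (0.84 to 0.98). The gates behind these totals differed. Of Krt8 UMIs, 49.0% in the TKO library and 5.29% in the WT library came from the endoderm gate, and 14.9% in the TKO library and 47.4% in the WT library came from the mesoderm gate. Ungated cells gave 33.1% in the TKO library and 41.5% in the WT library. Endoderm-gated cells held Krt8 at 761 CPM in TKO and 679 CPM in WT cells, Krt18 at 1078 CPM in TKO and 1389.8 CPM in WT cells, and Krt19 at 72.9 CPM in TKO and 121 CPM in WT cells. Their ratios there were 1.12 (1.05 to 1.20), 0.78 (0.74 to 0.81) and 0.60 (0.51 to 0.71). Mesoderm-gated cells held Krt8 at 199.8 CPM in TKO and 677 CPM in WT cells, a ratio of 0.30 (0.28 to 0.31). Krt18 in that gate stood at 181 CPM in TKO and 539 CPM in WT cells, a ratio of 0.34 (0.32 to 0.35). Krt19 in that gate stood at 2.91 CPM in TKO cells (26 UMIs) and 36.4 CPM in WT cells (551 UMIs), a ratio of 0.0799 (0.0518 to 0.118), the lowest ratio of any member in the 3 main gates. Its log2 ratio there, -3.62, ran from -4.54 to -2.34 over the gate settings tried, and thinning before gating gave the value nearest 0. All 3 keratins were also lower in the TKO pluripotent gate, Krt8 with 70.1 CPM in TKO and 220.2 CPM in WT cells, Krt18 with 90.7 CPM in TKO and 245 CPM in WT cells, and Krt19 with 6.56 CPM in TKO and 30.3 CPM in WT cells. Over the gate settings tried, their log2 ratios in that gate ran from -1.75 to -0.96 for Krt8, from -1.44 to -0.61 for Krt18 and from -2.36 to -0.97 for Krt19. The endothelial gate held Krt8 at 92.0 CPM in TKO and 302 CPM in WT cells, a ratio of 0.30 (0.23 to 0.39). Krt18 and Krt19 had ratios there of 0.27 (0.19 to 0.38) and 0.31 (0.081 to 0.84), the latter from 4 TKO UMIs. In ungated cells the ratios were 0.48 for Krt8, 0.73 for Krt18 and 1.00 for Krt19. Keratin 8 and 18 genes have processed pseudogene copies in mammals, and how reads that match several copies were counted is not given in the sources used here.

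Markers of other cells were also counted in the mesoderm gate. The mesothelium list (Upk3b, Upk1b, Wt1, Msln and Lrrn4) summed to 20.9 CPM in TKO and 162 CPM in WT mesoderm-gated cells. Mesothelium is a lining epithelium that expresses these keratins. Detected were 5 of 5 genes in TKO and 4 of 5 in WT cells, where Msln was at 0. In TKO cells, however, Lrrn4 gave 182 of the 187 UMIs, and Upk3b, Upk1b, Wt1 and Msln had 1 or 2 UMIs each. WT cells had 907 UMIs of Upk3b, 669 of Upk1b, 160 of Wt1 and 707 of Lrrn4. The feeder fibroblast list (Col1a1, Col1a2, Lum, Thy1, Postn, Dcn and Fbln2) summed to 7.84 CPM in TKO and 1049 CPM in WT cells of that gate, with 7 of 7 genes detected in each, and mesoderm can express the same genes. The surface ectoderm and trophoblast list summed to 23.7 CPM in TKO and 44.8 CPM in WT cells, with 7 of 8 genes detected in TKO and 5 of 8 in WT cells. Cdx2 and Gata3 gave 52 and 138 of the 212 UMIs in TKO cells and 411 and 238 of the 678 UMIs in WT cells. Tfap2a had 10 UMIs (1.12 CPM) in TKO and 7 UMIs (0.463 CPM) in WT cells. Trp63 was at 0 in that gate in both libraries. The neuroectoderm list summed to 20.7 CPM in TKO and 8.60 CPM in WT cells, with 8 of 8 genes detected in TKO and 4 of 8 in WT cells. Lhx2 and Nes gave 63 and 57 of its 185 UMIs in TKO cells and 82 and 44 of its 130 UMIs in WT cells. The part of these cells in the keratin difference was not tested. Mesoderm-gated cells without a single UMI of an endoderm or pluripotent marker numbered 423 TKO and 1218 WT cells, and Krt8 in them stood at 199 CPM in TKO and 683 CPM in WT cells, a ratio of 0.29 (0.27 to 0.31).

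Spint2 had 204 CPM in the TKO library (199 to 209) and 34.2 CPM in the WT library (32.4 to 36.2), 5.96-fold higher (5.61 to 6.33). The endoderm gate held it at 466 CPM in TKO and 432 CPM in WT cells, a ratio of 1.08 whose interval (0.996 to 1.17) holds 1. In the pluripotent gate it was lower in TKO cells, at 133 CPM in TKO and 212 CPM in WT cells, a ratio of 0.63 (0.50 to 0.81), and in the naive cells alone the ratio was 0.82 (0.56 to 1.19). Its mesoderm-gate level was 36.3 CPM in TKO and 10.9 CPM in WT cells, a ratio of 3.33 (2.75 to 4.04) or a log2 ratio of 1.73, which came to 0.35 when cells were thinned before gating.

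Emb had 1035 CPM in the TKO library (1024 to 1046) and 107 CPM in the WT library (103 to 110), 9.71-fold higher (9.40 to 10.0). It was the member that stood at least 2-fold higher in TKO cells of the pluripotent gate, with 400.4 CPM in TKO cells (1708 UMIs) and 93.6 CPM in WT cells (34 UMIs), a ratio of 4.28 (3.05 to 6.20). The naive cells of the gate gave a ratio near 1. In these cells, with more naive than formative markers, 27 TKO and 35 WT cells, Emb stood at 95.0 CPM in TKO and 90.2 CPM in WT cells, a ratio of 1.05 (0.62 to 1.79). In the 266 TKO cells with more formative markers it stood at 418 CPM, and the WT library had 1 such cell. Endoderm-gated cells held Emb at 2904 CPM in TKO and 1866 CPM in WT cells, a ratio of 1.56 (1.499 to 1.62), and that gate gave 64.8% of TKO and 78.6% of WT Emb UMIs. Mesoderm-gated cells held it at 149 CPM in TKO cells (1332 UMIs) and 8.27 CPM in WT cells (125 UMIs), a ratio of 18.1 (15.0 to 21.9).

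**Figure D2:**
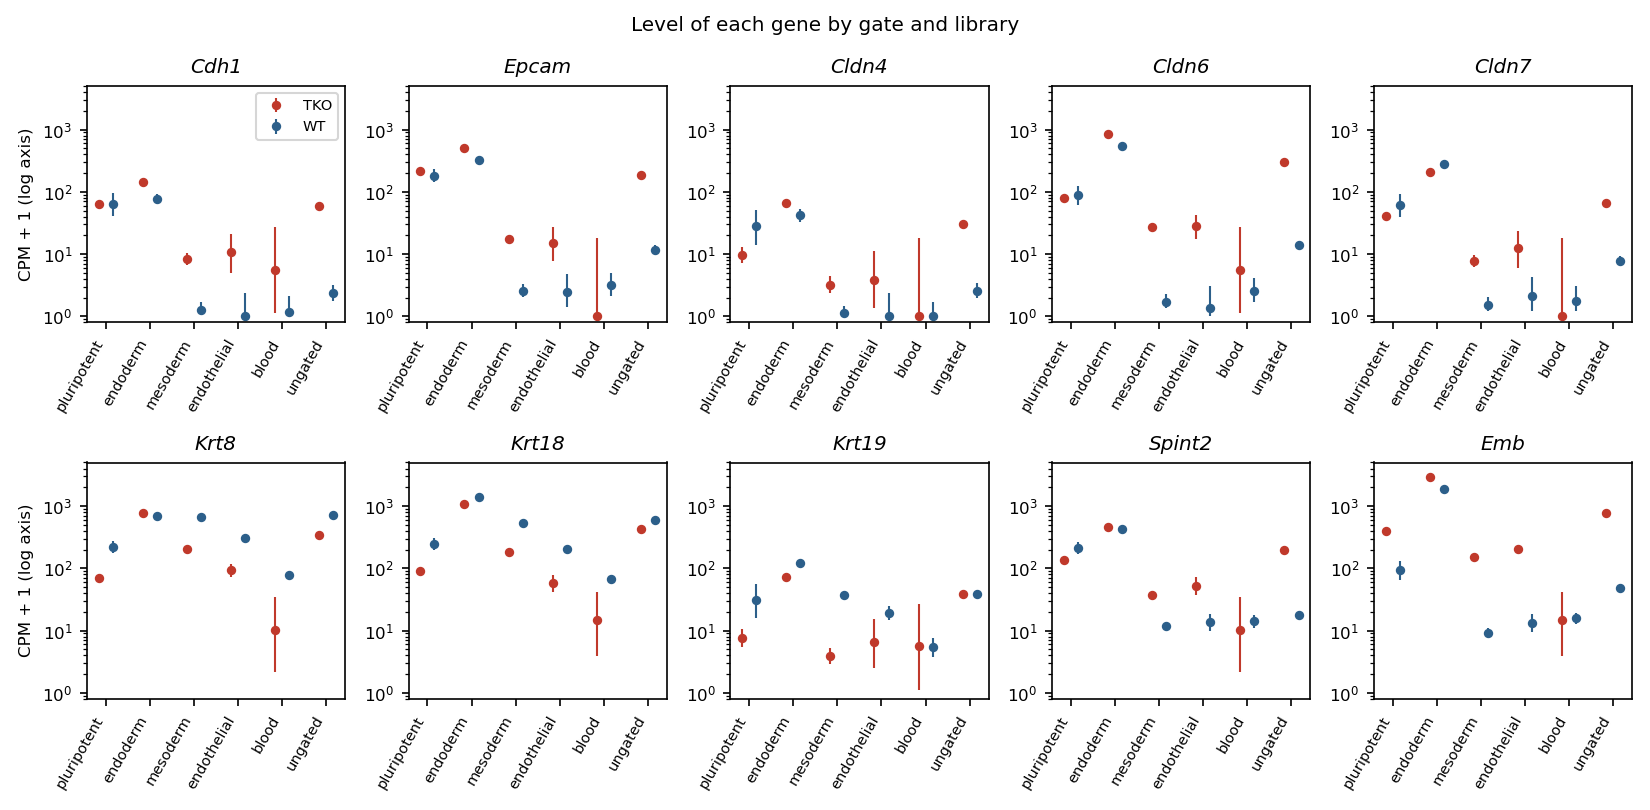
Level of each member gene in 6 sets of cells of the TKO library (red, left) and the WT library (blue, right), as CPM + 1 on a log axis, with bars as exact 95% intervals for counting error. The endoderm gate holds the highest level of each gene in both libraries except WT Krt8, and the WT mesoderm gate holds Krt8 at 677 and Krt18 at 539 CPM while its Cdh1 stands at 0.264 CPM.

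Within the pluripotent gate 1 of 10 members, Emb, was at least 2-fold higher in TKO cells, where 12.7% of 9408 genes were, and 4 (Cldn4, Krt8, Krt18 and Krt19) were at least 2-fold lower, where 8.99% of genes were. The median log2 ratio was -0.65 over the members and 0.08 over all genes tested. Among cells with more naive markers the intervals of 9 of 10 members held 1, and Epcam lay above it at 1.53 (1.10 to 2.14), although these intervals are wide. Krt8 in these naive cells stood at 211 CPM in TKO and 204 CPM in WT cells, and in the 266 formative TKO cells at 52.7 CPM. Within the endoderm gate 0 of 10 members were at least 2-fold higher in TKO cells, where 10.9% of 10827 genes were, and 0 were at least 2-fold lower, where 7.03% were. The median log2 ratio was 0.39 over the members and 0.22 over all genes tested, and thinning before gating set the members' median at 0.033. Cells with more visceral markers, 64 TKO and 178 WT cells, gave a median of 0.28, with 4 members above 1, Cldn7 below 1, and 5 whose intervals held 1. Krt19 was the member whose endoderm ratio depended most on this split, at 138 CPM in TKO and 114 CPM in WT visceral cells and 63.1 CPM in 574 TKO cells and 203 CPM in 13 WT cells (27 UMIs) with more of the other endoderm markers.

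Within the mesoderm gate 7 of 10 members were at least 2-fold higher in TKO cells, where 8.81% of 12098 genes were, and the 3 keratins were at least 2-fold lower, where 10.9% were. The median log2 ratio was 3.49 over the members and 0.09 over all genes tested, and it came to 2.31 with thinning before gating and 1.85 in mesoderm-gated cells without any endoderm or pluripotent marker, a subset chosen after seeing the data. Over the gate settings tried, that subset included, the log2 ratios ran from 3.47 to 4.81 for Cdh1, from 2.31 to 3.97 for Epcam, from 2.60 to 5.27 for Cldn4, from 2.08 to 5.49 for Cldn6, from 1.62 to 3.85 for Cldn7, from 0.35 to 2.21 for Spint2 and from 3.28 to 4.29 for Emb. Apart from Emb, at 149 CPM, the levels behind the high ratios were low, from 2.24 CPM (Cldn4) to 36.3 CPM (Spint2) in TKO cells. The TKO endothelial gate, whose cells should lack Cdh1, Epcam and these claudins, held Cdh1 at 9.91 CPM (7 UMIs), Epcam at 14.2 CPM (10 UMIs) and Cldn6 at 26.9 CPM (19 UMIs). It held Spint2 at 51.0 CPM and Emb at 204 CPM, against 12.8 and 12.4 CPM in WT endothelial-gated cells. After thinning, 2 of the 51 TKO endothelial-gated cells had 5 or more members. The TKO blood gate, of 22 cells, held Cdh1 and Cldn6 at 4.66 CPM (1 UMI each) and Epcam at 0. It held Spint2 at 9.32 CPM (2 UMIs) and Emb at 14.0 CPM (3 UMIs). Mesoderm over blood gate in TKO cells, Emb stood at 10.7 (3.64 to 51.8) and Spint2 at 3.89 (1.07 to 32.3). The intervals for Cdh1 and Cldn6 held 1. In the TKO mesoderm gate Cdh1, Epcam and Cldn6 stood at 7.39, 16.6 and 25.9 CPM, not separated from the endothelial level by their intervals, and Emb at 149 CPM stood below it. After thinning of cells to 4000 UMIs each, Epcam was detected in 4.69% of TKO mesoderm-gated and 3.92% of TKO endothelial-gated cells, and Cldn6 in 5.43% of TKO mesoderm-gated and 11.8% of TKO endothelial-gated cells. Cdh1 was detected in 1.98% of TKO mesoderm-gated and 1.96% of TKO endothelial-gated cells, and Cldn7 in 1.98% of TKO mesoderm-gated and 5.88% of TKO endothelial-gated cells. The intervals of these shares overlap, and with 51 endothelial-gated cells they are wide (0.0496% to 10.4% for Cdh1), so no expression is read from the shares in mesoderm-gated cells. Spint2 was detected in 8.40% of TKO mesoderm-gated and 19.6% of TKO endothelial-gated cells. Cldn4 was detected in 0.741% of TKO mesoderm-gated cells and in 0 of 51 endothelial-gated ones, which allows a share of up to 5.88%. Emb was detected in 28.6% of TKO mesoderm-gated cells (25.6% to 31.9%) and 17.6% of TKO endothelial-gated cells (8.40% to 30.9%). In the subset without endoderm or pluripotent markers Emb was detected in 24.6% of TKO cells (20.6% to 29.1%) and 2.89% of WT cells (2.01% to 4.02%), at 78.5 CPM in TKO and 8.07 CPM in WT cells. The endoderm list summed to 62.4 CPM in TKO and 24.3 CPM in WT mesoderm-gated cells, with 9 of 12 genes detected in each. The part of free RNA or doublets in these levels was not tested. Median depth was 10101 UMIs in TKO and 8457 UMIs in WT mesoderm-gated cells and 11695 UMIs in TKO endothelial-gated cells.

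**Figure D3:**
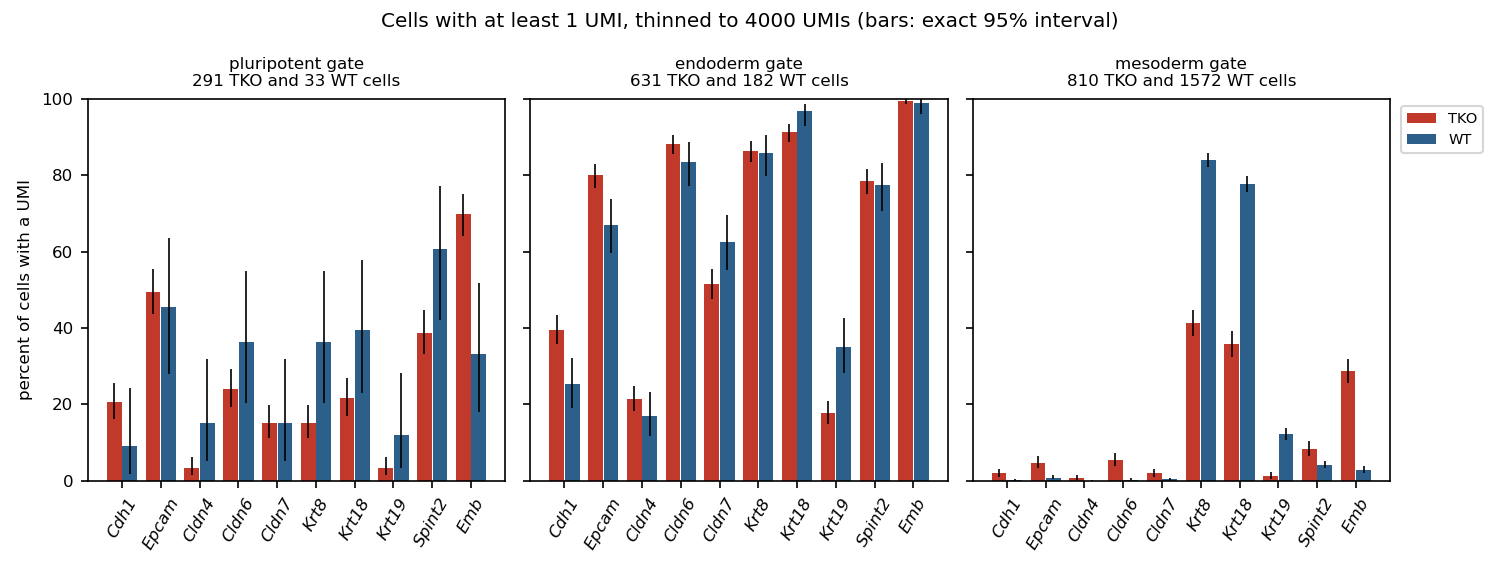
Share of cells with at least 1 UMI of each member gene after every cell was thinned to 4000 UMIs, in 3 gates, for the TKO library (red, left bars) and the WT library (blue, right bars), with lines as exact 95% intervals. In the mesoderm gate Krt8 was detected in 41.2% of TKO and 84.0% of WT cells, while Epcam was detected in 4.69% of TKO and 0.827% of WT cells.

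Shares of cells with a UMI were compared at equal depth. In the endoderm gate Emb was detected in 99.5% of TKO and 98.9% of WT thinned cells, Cldn6 in 88.3% of TKO and 83.5% of WT cells, and Epcam in 80.0% of TKO and 67.0% of WT cells. Cdh1 was detected there in 39.6% of TKO (35.8% to 43.6%) and 25.3% of WT cells (19.1% to 32.2%), and Krt19 in 17.7% of TKO (14.8% to 21.0%) and 35.2% of WT cells (28.3% to 42.6%). Among endoderm-gated cells with more visceral markers, Cdh1 was detected in 21.0% of TKO (11.7% to 33.2%) and 25.4% of WT cells (19.1% to 32.7%). Over the thinned libraries, 3006 TKO and 4017 WT cells, Epcam was detected in 34.3% of TKO and 4.88% of WT cells, and without thinning in 43.5% of TKO and 6.36% of WT cells. Krt8 was detected in 50.5% of TKO and 73.5% of WT thinned cells, and without thinning in 64.3% of TKO and 81.0% of WT cells. In the WT mesoderm gate Krt8 was detected in 84.0% and Krt18 in 77.7% of cells, against 40.2% and 33.6% of WT endothelial-gated cells and 14.3% and 13.3% of WT blood-gated cells at the same depth. These keratin shares differed between the WT mesoderm, endothelial and blood gates beyond their intervals. Epcam was detected in 0.827% of WT mesoderm-gated and 1.52% of WT blood-gated cells. The part of free RNA in these shares was not tested.

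Most cells of the endoderm gate held most of the members. After thinning, 5 or more of the 10 members were detected in 90.2% of TKO endoderm-gated cells (87.6% to 92.4%) and 88.5% of WT ones (82.9% to 92.7%), with a median of 7 members per cell in each. In the pluripotent gate 32 of 291 TKO cells (7.64% to 15.2%) and 10 of 33 WT cells (15.6% to 48.7%) held 5 or more. Among mesoderm-gated cells 2.22% of TKO and 0.0636% of WT cells did, 1 cell in the WT library. Ungated cells also held these genes in the TKO library, with Cdh1 at 57.9 CPM in TKO and 1.34 CPM in WT ungated cells and Epcam at 189 CPM in TKO and 10.8 CPM in WT ungated cells. There 30.8% of TKO (28.2% to 33.5%) and 1.67% of WT cells (1.08% to 2.45%) held 5 or more members. Over whole libraries 33.0% of TKO and 4.90% of WT cells did.

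**Figure D4:**
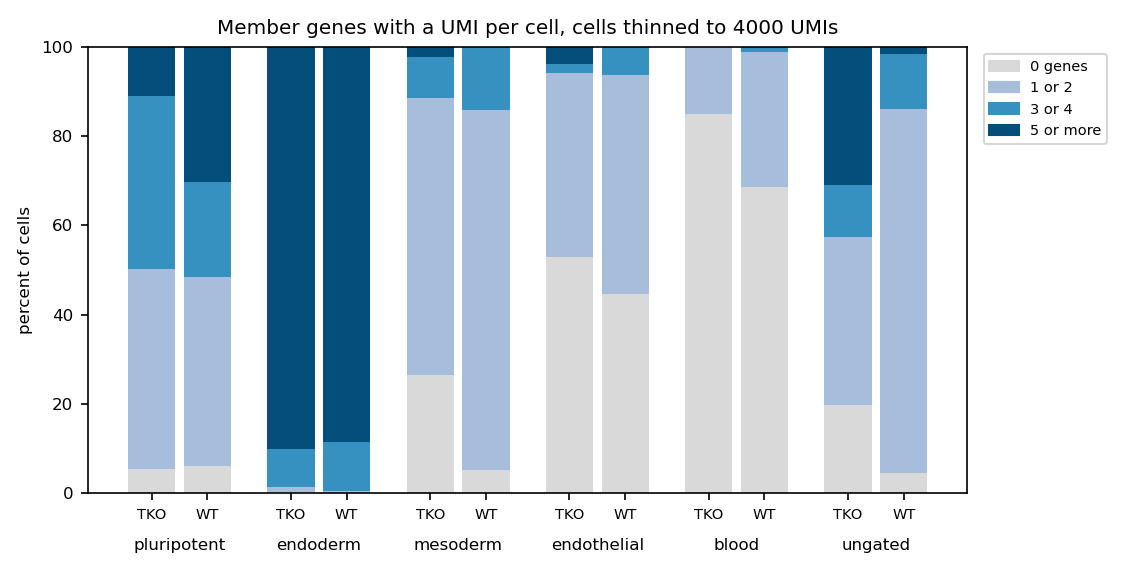
Share of cells, in percent, by the number of member genes with a UMI after thinning to 4000 UMIs, as stacked bars for the TKO (left) and WT (right) library in 5 gates and ungated cells. Cells with 5 or more members fill 90.2% of TKO and 88.5% of WT endoderm-gated cells, and 30.8% of TKO but 1.67% of WT ungated cells.

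Members were detected together in single cells. Among thinned TKO cells with Cdh1, 77.2% also had Epcam (73.3% to 80.8%), against 25.6% of TKO cells without Cdh1. In the WT library, Epcam was found in 57.6% of the 59 cells with Cdh1 (44.1% to 70.4%) and 4.09% of cells without it. In the TKO pluripotent gate Epcam was found in 66.7% of cells with Cdh1 (53.3% to 78.3%) and 45.0% of cells without it (38.5% to 51.7%). Within the endoderm gate the contrast was smaller. Epcam was found there in 83.2% of TKO cells with Cdh1 (78.0% to 87.6%) and 78.0% of TKO cells without it (73.4% to 82.0%), and in 63.0% of WT cells with Cdh1 (47.5% to 76.8%) and 68.4% of WT cells without it (59.9% to 76.1%). Cldn6 was found in 86.8% of TKO cells with Cldn7 and 23.9% of those without, and in 78.1% of WT cells with Cldn7 and 2.17% of those without. Krt18 was found in 74.8% of TKO cells with Krt8 and 27.5% of those without, and in 80.4% of WT cells with Krt8 and 35.6% of those without. In the WT endoderm gate that contrast was 96.8% of cells with Krt8 and 96.2% of the 26 cells without it. In the TKO endoderm gate it was 93.6% (91.2% to 95.5%) and 76.7% (66.4% to 85.2%). In the mesoderm gate it was 50.3% and 25.6% in TKO cells and 80.7% and 62.2% in WT cells, with intervals that did not overlap. Vim, the mesenchymal filament gene, was found in 20.7% of TKO cells with Epcam and 61.7% of TKO cells without it. In the WT library these shares were 42.3% and 81.3%. Within TKO gates they were 15.0% and 16.7% for endoderm, 34.0% and 27.9% for pluripotent and 63.2% and 74.1% for mesoderm, with overlapping intervals. In TKO ungated cells they were 18.2% and 62.4%. Cdh2, which encodes N-cadherin of mesenchymal cells, was found in 9.50% of TKO cells with Cdh1 (7.09% to 12.4%) and 17.3% of those without it (15.8% to 18.8%). Within the TKO endoderm gate it was found in 10.8% of cells with Cdh1 (7.24% to 15.3%) and 13.1% of those without it (9.90% to 16.9%), and these intervals overlap. In the TKO library 15.2% of cells had Cdh1 alone, 14.4% Cdh2 alone and 1.60% both, and in the WT library 1.42% had Cdh1 alone, 10.9% Cdh2 alone and 0.0498% both. Among endoderm-gated cells 35.3% of TKO and 24.7% of WT cells had Cdh1 alone, and 4.28% of TKO and 0.549% of WT cells had both.

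Proportions within pairs also shifted with the cells. Krt8 made up 41.4% of the Krt8 and Krt18 UMIs in the TKO endoderm gate (40.6% to 42.2%) and 32.8% in the WT endoderm gate. In the mesoderm gate it made up 52.4% in TKO (50.7% to 54.1%) and 55.7% in WT cells. In both libraries the type II keratin thus took a larger part of the pair in the mesoderm than in the endoderm gate. Cldn6 made up 80.0% of the Cldn6 and Cldn7 UMIs in the TKO endoderm gate (79.1% to 80.9%) and 65.7% in the WT endoderm gate.

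Between gates of 1 library, which share that library, the endoderm gate was highest for nearly all members. In the TKO library 10 of 10 members were at least 2-fold higher in the endoderm than in the mesoderm gate, where 9.32% of 11686 genes were, and 0 were at least 2-fold lower, where 7.26% were, with a median log2 ratio of 4.45. In the WT library 9 of 10 were, where 11.1% of 11646 genes were, and 0 were at least 2-fold lower, where 17.1% were, with a median of 7.74. The remaining member, Krt8, had 679 CPM in the endoderm and 677 CPM in the mesoderm gate of that library, a ratio of 1.00 (0.94 to 1.07). In the TKO library Krt8 stood at 761 CPM in the endoderm and 199.8 CPM in the mesoderm gate, a ratio of 3.81 (3.61 to 4.02). Emb stood 19.5-fold higher (18.4 to 20.6) in the TKO endoderm than in the TKO mesoderm gate, and 226-fold higher (189 to 272) in the WT endoderm than in the WT mesoderm gate. Pluripotent over mesoderm gate, 8 of 10 members were at least 2-fold higher in the TKO library, where 8.44% of 11359 genes were, and Krt8 was at least 2-fold lower, where 11.3% were. The median of this comparison was 1.75 and ranged with the gate settings as given in the closing part. In the WT library 6 members were at least 2-fold higher, where 13.6% of 11360 genes were, and Krt8 and Krt18 were at least 2-fold lower, where 19.3% were. That count runs over 9 members, since Cldn4 had under 20 UMIs in the WT pluripotent and mesoderm gates together. Endoderm over pluripotent gate, 10 of 10 members were at least 2-fold higher in the TKO library, where 11.7% of 11302 genes were and 6.77% were at least 2-fold lower. In the WT library 7 of 10 were, where 15.5% of 7384 genes were and 9.14% were at least 2-fold lower. No member was at least 2-fold lower in either library. Cdh1, Epcam and Cldn4 were the members under 2-fold there, at 1.19 (0.76 to 1.95), 1.81 (1.40 to 2.37) and 1.51 (0.77 to 3.29).

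Other genes of the same structures were counted from lists of junction, keratin and regulator genes, each against the background of 12.3% of genes at least 2-fold higher in the TKO and 11.3% at least 2-fold lower over whole libraries. Of 21 tight junction genes with enough UMIs, 14 were at least 2-fold higher and 3 lower, with a median log2 ratio of 1.57. Marveld2, which encodes tricellulin, had 13.8 CPM in the TKO and 1.28 CPM in the WT library, 10.8-fold higher (8.01 to 14.9), and Cldn23 had 3.85 CPM in the TKO and 0.240 CPM in the WT library. Cldn8 had 38 UMIs in the TKO library and 0 in the WT library, at least 14.2-fold higher against a floor of 3 counts in the WT library. The lower ones were Cldn2, at 0.0299 CPM in TKO (1 UMI) and 1.87 CPM in WT, the polarity gene Pard6b at 22.9 CPM in TKO and 52.5 CPM in WT, and Cldn5, an endothelial gate marker, at 2.57 CPM in TKO and 16.5 CPM in WT. Of 9 adherens junction genes 1 was higher and 2 lower, with a median of 0.33. Among them Nectin1, counted under an older symbol, had 26.6 CPM in the TKO and 4.96 CPM in the WT library, and Cdh3, which encodes P-cadherin, had 3.97 CPM in the TKO and 27.9 CPM in the WT library. Of 9 desmosome genes 2 were higher and 1 lower, with a median of 0.08, and the plaque gene Dsp stood at 38.8 CPM in the TKO and 39.9 CPM in the WT library. Of 5 other keratin genes 2 were higher and 1 lower. Krt7, of simple epithelia, had 3.82 CPM in the TKO and 1.76 CPM in the WT library, and Krt14, of basal epithelia, had 0.119 CPM in the TKO (4 UMIs) and 3.41 CPM in the WT library (128 UMIs).

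Regulators and partners of the members were counted in the same way. Of 11 epithelial regulators 9 were at least 2-fold higher in the TKO library and 1 lower, with a median log2 ratio of 2.24. Grhl2, a grainyhead transcription factor that acts on Cdh1 and claudin genes, had 6.15 CPM in the TKO library (206 UMIs) and 0.213 CPM in the WT library (8 UMIs), 28.8-fold higher (14.4 to 67.7). In the endoderm gate Grhl2 stood at 15.6 CPM in TKO cells (121 UMIs) and 1.19 CPM in WT cells (2 UMIs), a ratio of 13.2 (3.57 to 110). The related gene Grhl3 went the other way, at 0.926 CPM in the TKO and 4.96 CPM in the WT library, and in the mesoderm gate it had 1 UMI in TKO and 101 UMIs in WT cells. Esrp1, which sets epithelial splicing, had 17.1 CPM in the TKO and 1.71 CPM in the WT library. Of 5 epithelial proteases and inhibitors 4 were higher and 0 lower, among them the related inhibitor Spint1 at 39.3 CPM in the TKO and 4.45 CPM in the WT library, and St14, which encodes the protease matriptase, at 13.3 CPM in the TKO and 1.60 CPM in the WT library. Of 5 genes related to embigin 1 was higher and 0 lower. Slc16a1, which encodes a monocarboxylate transporter, had 213 CPM in the TKO and 31.4 CPM in the WT library, and in the endoderm gate 667 CPM in TKO and 400.2 CPM in WT cells. Bsg, which encodes the related chaperone basigin, had 574 CPM in the TKO and 653 CPM in the WT library. Of 6 genes listed as partners of Epcam 1 was at least 2-fold higher in the TKO library and 3 lower, with a median log2 ratio of -0.60. The lower ones were Cd44 at 2.39 CPM in the TKO and 9.28 CPM in the WT library, Cd82 at 3.17 CPM in the TKO and 9.20 CPM in the WT library, and Cd81 at 199.5 CPM in the TKO and 401 CPM in the WT library.

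Mesenchymal genes were more often lower than higher. Of 12 listed, 2 were at least 2-fold higher and 5 lower in the TKO library, with a median log2 ratio of -0.56. Vim had 263 CPM in the TKO and 815 CPM in the WT library, a ratio of 0.32 (0.31 to 0.33), Fn1, which encodes fibronectin, 141 CPM in the TKO and 771 CPM in the WT library, and the repressor gene Snai2 17.3 CPM in the TKO and 128 CPM in the WT library. Prrx1 and Twist1 were the higher pair, at 14.6 CPM in the TKO and 2.03 CPM in the WT library for Prrx1 and 36.6 CPM in the TKO and 17.1 CPM in the WT library for Twist1, and both are mesoderm gate markers. Cdh2 was 1.37-fold higher (1.26 to 1.48), at 42.9 CPM in the TKO and 31.4 CPM in the WT library. Within the mesoderm gate Cdh2 stood at 66.1 CPM in TKO and 42.2 CPM in WT cells, Vim at 418 CPM in TKO and 949 CPM in WT cells, and Snai2 at 37.8 CPM in TKO and 168 CPM in WT cells. The mesenchymal genes thus did not move as 1 block.

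Across the 12 combinations of library and gate, ungated cells included, the profile of log2(CPM + 1) of single members was set against the mean of the other 9. Pearson's r was 0.99 for Cldn7, 0.98 for Cldn4, 0.97 for Spint2, 0.96 for Epcam, 0.94 for Cldn6, 0.91 for Emb and 0.87 for Cdh1. It was lower for the keratins, at 0.48 for Krt8, 0.64 for Krt18 and 0.63 for Krt19. Of 9420 other genes, those with profiles most like the members' mean were Prss8, which encodes the epithelial protease prostasin, at 0.99, Arhgef16 at 0.97, Met, the receptor of hepatocyte growth factor, at 0.97, and Ap1m2, a sorting adaptor of epithelial cells, at 0.96. Tnfrsf12a, Kdf1, Adora1 and Camsap3 followed at 0.96. These points share 2 libraries and differ in depth and in number of cells, so r is a description only.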

How the data were processed

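The 2 samples analysed are single-cell libraries, TKO and WT per the labels. Whole-number counts, the authors' raw values per gene in each cell, were read as UMI counts. Seurat 3, mm10, BSMAP, MACS2 and DESeq2 appear in the submitters' processing notes with no role. The sources used here do not give the aligner or chemistry. Per the file headers the TKO cells had 3224 barcodes for 3223 values in a row, and they were taken in order. Deposited totals were 33602635 UMIs for TKO and 37537946 UMIs for WT, in 3223 and 4395 cells. Row names differed in 116 places and rows were matched by position. The headers shared 21 cell barcodes.

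Kept cells had 500 genes, 1000 UMIs and at most 15% mitochondrial UMIs. Scrublet in scanpy 1.11.5 marked 1 TKO and 3 WT cells (0.0313% and 0.0683%), too few for a working caller, so doublets were in effect not removed. Counts were summed per library and gate and scaled to CPM, with exact Poisson intervals, and ratios have exact Clopper-Pearson intervals. Log2 ratios used a prior count of 0.5, and a gene at 0 was set to 3 counts, worth 0.0896 CPM in the TKO and 0.0800 CPM in the WT library. Genes counted as at least 2-fold higher or lower needed 20 UMIs in both groups together. Cells were thinned to 4000 UMIs for shares, which left out 190 TKO and 372 WT cells. Steps were tested on simulated data. Named genes were all members, up to 3 genes at either end of each list, Cdh2 and Vim, and the 8 genes most like the members. Other genes named are gate markers, or were chosen after their values were seen. The members and lists were chosen with earlier results of these data known. Older symbols were matched for 4 listed genes. 1 listed gene is not reported here.

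No test between libraries and no p-value is given. Alternatives were DESeq2 and edgeR scaling factors, other cell filters and gate rules, thinning and gene minimums.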

Additional observations from a re-analysis of the deposited data

Results flagged for a closer look

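The difference between TKO and WT cells ran in opposite directions in 2 gates for 4 members. With 1 library per genotype none of these differences was tested. Cldn4 was higher in TKO cells of the mesoderm gate (2.24 CPM in TKO and 0.132 CPM in WT cells) and lower in those of the pluripotent gate (8.67 CPM in TKO and 27.5 CPM in WT cells), and the log2 ratios differed by 5.51. In naive cells of the pluripotent gate Cldn4 stood at 42.9 CPM in TKO and 29.1 CPM in WT cells, a ratio of 1.47 (0.61 to 3.71), and in mesoderm-gated cells without endoderm or pluripotent markers its ratio was 7.80 (0.63 to 409), so that both intervals hold 1. Cldn7 was higher in TKO cells of the mesoderm gate and lower in those of the endoderm gate, a difference of 4.06. In mesoderm-gated cells without endoderm or pluripotent markers its ratio was 3.12 (0.79 to 12.9), from 6 TKO and 5 WT UMIs, an interval that holds 1. Krt8 was higher in TKO cells of the endoderm gate and lower in those of the mesoderm gate, a difference of 1.92. Its endoderm log2 ratio was 0.16, against a median of 0.22 over all genes tested in that gate, and it came to 0.07 when cells were thinned before gating. Its endoderm ratio was 1.48 (1.34 to 1.63) in visceral cells and 0.87 (0.72 to 1.05) in the cells with more of the other endoderm markers. Spint2 was higher in TKO cells of the mesoderm gate and lower in those of the pluripotent gate, a difference of 2.41, and its ratio in naive cells of the pluripotent gate was 0.82 (0.56 to 1.19). Cldn4, Cldn7 and Spint2 stood at 2.24, 6.83 and 36.3 CPM in the TKO mesoderm gate, and their intervals did not separate them from 2.83, 11.3 and 51.0 CPM in the TKO endothelial gate. Spint2 was separated from the TKO blood gate, at a ratio of 3.89 (1.07 to 32.3) from 2 blood-gate UMIs.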

How the results depend on the processing

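No paired analysis was possible because each genotype has 1 library, and no replicate could be left out. Depth limits Cdh1, Cldn4, Cldn6, Cldn7 and Epcam in the WT mesoderm gate (2 to 24 UMIs) and all ratios of the pluripotent gate, with 37 WT cells. Whole-library ratios of members kept their sign in 70 of 70 alternatives and ratios within gates in 181 of 190. The cause of the shifts below was not tested. The whole-library median log2 ratio of 2.93 became 2.77 with DESeq2 size factors, 2.80 with TMM scaling, 2.66 with thinning and 2.81 as a mean of per-cell values. With gates and counts thinned, the endoderm gate median of 0.39 became 0.033, the mesoderm gate median of 3.49 became 2.31, endoderm over mesoderm became 4.89 in TKO (from 4.45) and 7.17 in WT (from 7.74), pluripotent over mesoderm in TKO became 2.58 (from 1.75), and Cldn4 in the endoderm gate turned to -0.12. Pluripotent over mesoderm in TKO was 1.38 with at least 2 markers, 1.29 with markers counted from 2 UMIs and 2.24 without the highest doublet scores, which set endoderm over mesoderm in TKO at 5.01. An endoderm list without Trh, Ttr, Apoa1, Afp and Spink1 gave 3.53 in TKO and 6.45 in WT for endoderm over mesoderm, and 1.07 in TKO and 4.66 in WT for pluripotent over mesoderm. In mesoderm-gated cells without endoderm or pluripotent markers, chosen after seeing the data, the mesoderm gate median was 1.85. Within the pluripotent gate, thinning set Cdh1 at 1.12 and Cldn7 at 0.91 on the log2 scale, against -0.06 and -0.63.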
